A study of Mus musculus with 15 samples.

Results

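The constitutive proteasome genes are the genes that encode the standard protein-degrading machine of the cell, as opposed to the subunits that interferon induces. They were taken as all genes whose KEGG annotation in the deposited FPKM table names the proteasome pathway, which 46 genes did, leaving out the inducible subunits Psmb8, Psmb9, Psmb10, Psme1 and Psme2 and the interferon gamma gene. This gave 40 of the 32479 genes of the table. Of the 40, 38 had enough counts to be tested, and these 38 were read in every library, from 182 counts for Psma5 in its lowest library to 6902 counts for Psmd4 in its highest. Counts in every library show that these 38 were expressed, not that each is constitutive. The other two, Psma8, the alpha subunit of the testis, and Psmb11, the beta subunit of the thymic cortex, had at most 8 and 7 counts in any library and are described no further. The tested member Psme2b is by its name a copy of the inducible activator gene Psme2, and reads of the pair may not have been told apart.

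The series sequenced RNA of submandibular glands of mice from 3 groups of 5 libraries each. The control group was ICR mice with no treatment, the model group was NOD/LTJ mice with no treatment, and the SJQYD group was NOD/LTJ mice that received SJQYD, which is not explained in the labels. All animals carry the genotype label WT, and no age, sex, dose or time of treatment is given in the sources used here. ICR and NOD/LTJ are different strains, so strain and gland disease cannot be told apart in any comparison with control, and the model and control groups each enter 2 of the 3 comparisons. The labels do not say whether libraries came from single or pooled animals, and p-values measure the spread between these libraries only.

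The proteasome degrades proteins marked with ubiquitin chains. Its barrel-shaped core has outer rings of alpha subunits, which gate the entrance, and inner rings of beta subunits, of which only Psmb6, Psmb7 and Psmb5 cut peptide bonds. A regulatory cap sits on the core: its base holds ATPases that unfold the substrate, and its lid removes the ubiquitin. In cells exposed to interferon gamma, Psmb9, Psmb10 and Psmb8 take the places of Psmb6, Psmb7 and Psmb5 and form the immunoproteasome, which favours peptides for antigen presentation. The submandibular gland of NOD mice is known for infiltrates of immune cells, and its acinar cells are secretory cells that make large amounts of protein.

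Libraries held 39510018 to 68694263 counts. A single secretory transcript, the acinar gene Mucl2, took 15.5% (SJQYD 1) to 53.8% (control 3) of them, and the TMM scaling factors of edgeR ran from 0.594 to 1.85, so the choice of scaling weighed on every comparison. All 7 submandibular acinar markers had counts in every library. Their summed level was 471957 to 977803 CPM (counts scaled to a common library size, here always after TMM) in control, 246595 to 535727 in model and 100882 to 567487 in SJQYD. Mucl2 is among these markers, so their sum is not a measure separate from its share. Sublingual marker genes summed to between 30.6 and 39834 CPM over the libraries. Their medians were 1356 CPM in control, 7607 in model and 22866 in SJQYD, and the groups overlapped. Parotid marker genes stood apart in control 2, model 3 and SJQYD 1, the richest library of each group at 41188, 132646 and 35099 CPM, and counts of members are therefore also given without these libraries. The summed level of 16 leukocyte markers was 49.8 to 197 CPM in control, 225 to 539 in model and 142 to 340 in SJQYD, with Cd79a and Cd79b among those at 0 in some library. The part of the parotid, sublingual and leukocyte transcripts in the results below was not tested. In whole glands fewer cells of a type and less RNA per cell cannot be told apart.

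The members took 0.0712% (control 1) to 0.195% (SJQYD 1) of all counts, while on the TMM scale their summed level was 958.8 CPM in the lowest library (control 2) and 1212 CPM in the highest (control 5). Compared per length by FPKM, the highest mean levels over 15 libraries were those of the catalytic subunits Psmb5 and Psmb6, both at 26.4 FPKM, and of the ATPase Psmc5 at 26.2 FPKM. The lowest were the inhibitor Psmf1 at 1.25 FPKM, the lid subunit Psmd11 at 1.51 and the base scaffold Psmd1 at 1.61. The highest and the lowest member differed 21.2-fold.

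The order depended on the length used. The FPKM values were found to be scaled to all annotated exons of a gene, retained introns included, which for the members was up to 3.36 times the length of the principal coding transcript (median 1.67). On CPM per kilobase of that principal transcript, Psmb6 (70.2) and the alpha subunit Psma7 (64.8) led, followed by Psmd4 (38.5), Psmb3 (37.4) and Psmb4 (34.8), and Psmf1 (3.55) was again the lowest, 19.8-fold below Psmb6. Between the scales 5 members moved by 10 or more ranks. On neither scale did any of the 37 pairs of neighbours in the order differ beyond their ranges over the 15 libraries. By role, the median member stood at 26.4 FPKM among the 3 catalytic beta subunits, of which Psmb7 was at 4.21. It stood at 10.7 among the 6 ATPases, 10.1 among the 4 other beta subunits, 6.97 in the lid and 6.96 in the alpha ring. The base scaffold and ubiquitin receptors had 6.90, and the activators, inhibitor and maturation factor 4.15. On CPM per kilobase of the principal transcript these medians were, in the same order, 30.7, 17.9, 31.2, 12.1, 16.7, 16.6 and 5.59. On that scale the catalytic subunits did not stand above the other beta subunits.

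**Figure D1:**
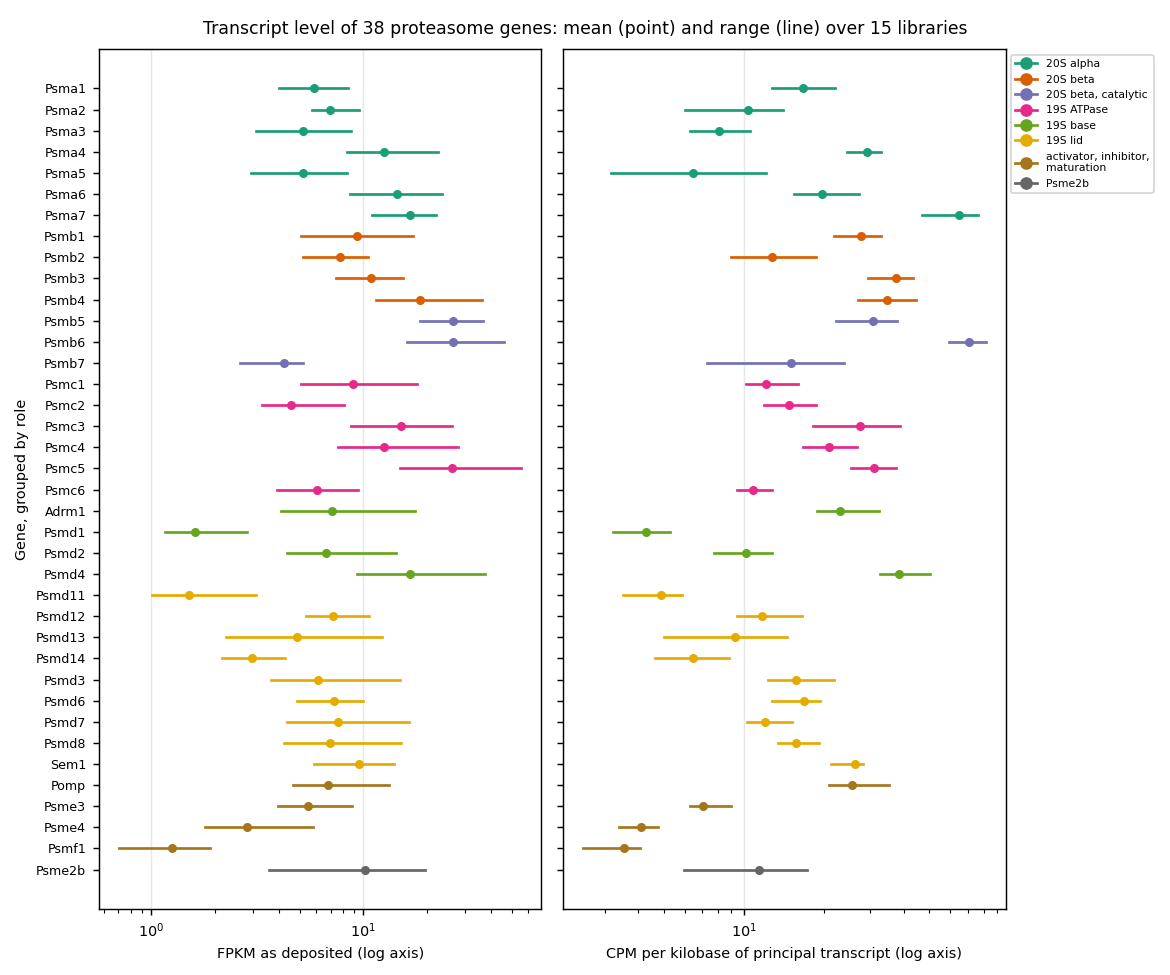
Mean level (point) and range over 15 libraries (line) of the 38 tested members, grouped by role, in FPKM as deposited (left, log axis) and in CPM per kilobase of the principal transcript (right, log axis). Psmb5, Psmb6 and Psmc5 lead at 26.2 to 26.4 FPKM, Psmb6 and Psma7 lead on the right, and Psmf1 is lowest on both.

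The first question of the design is what sets untreated NOD/LTJ glands apart from ICR glands. For the constitutive proteasome the answer was that no member passed the test: 0 of 38 were higher and 0 lower at an adjusted p under 0.05 in edgeR, where 5.07% of all 18136 genes passed, 2.57% higher and 2.5% lower. The 2 groups overlapped in every member, whereas 3.05% of all genes lay wholly higher in model and 2.71% wholly lower. At an unadjusted p under 0.05 there were 0 higher and 6 lower, or 15.8% of members against 21.9% of all genes, and DESeq2 also called 0. The median log2 fold change, model over control, was -0.08 over members and 0.03 over all genes. The lowest value was -0.47 for the trypsin-like subunit Psmb7 and the highest 0.24 for Psme2b. On the TMM scale the 95% interval of the fold change lay within 1.5-fold in both directions for 32 of 38 members, and within 2-fold for all 38 members. Of all genes 30.6% lay within 1.5-fold, but their median standard error was larger, 0.244 in log2 against 0.122 for the members. The intervals given here and below take the scaling as known and do not hold its uncertainty. Without control 2, edgeR called 3 members lower (Psmc2, Psmd12 and Psme3), and without all 3 parotid-rich libraries 1 (Psmc2, -0.36, adjusted p = 0.0484).

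The second question is what SJQYD did in NOD/LTJ glands. Against the model group, again 0 of 38 members were higher and 0 lower in edgeR, where 2.75% of all genes passed (1.91% higher and 0.838% lower), and 3 higher and 1 lower had an unadjusted p under 0.05 (10.5% of members, 16.2% of all genes). DESeq2 called 1 member higher, the activator gene Psme4. Median log2 fold changes were -0.04 over members and -0.03 over all genes, and single members ran from -0.33 (Psmc3) to 0.28 (Psmd11). For 32 of 38 members the 95% interval lay within 1.5-fold, against 32.1% of all genes, and for all 38 within 2-fold.

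Treated NOD/LTJ glands against ICR glands, a comparison that shares its libraries with both of the others, gave 2 called members. The ATPase gene Psmc3 and the activator gene Psme3 were lower and 0 members were higher, where 11.1% of all genes passed, 5.22% higher and 5.9% lower. At an unadjusted p under 0.05 there were 2 higher and 11 lower members, 34.2% against 26.6% of all genes. The median log2 fold change was -0.11 over members and 0.04 over all genes, from -0.65 for Psmb7 to 0.33 for the ubiquitin receptor Adrm1, and 29 of 38 intervals lay within 1.5-fold and 35 within 2-fold. The number called lower hung on single libraries: it was 10 without control 2, 0 without control 1, control 5 or SJQYD 2, and 7 without the 3 parotid-rich libraries. DESeq2 called 6 lower and 1 higher (Adrm1).

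Directions in the comparisons with control depended on the scaling. With library totals in place of TMM, the median of all genes shifted to 0.52 (model over control), 0.08 (SJQYD over model) and 0.63 (SJQYD over control), and the median of the members to 0.42, 0.07 and 0.52. On that scaling 38, 28 and 37 of 38 members lay above 0, and 1 member (Psma7), 0 and 12 were called higher with 0 lower, while 8.40% of all genes were called higher and 0.232% lower for model over control, and 25.2% and 0.551% for SJQYD over control. Relative to the median of all genes the members thus sat slightly lower with TMM and with library totals in both comparisons with control. They also sat lower in limma on log2(FPKM + 0.1), at 0.40 against 0.45 (model over control) and 0.44 against 0.54 (SJQYD over control). In limma on log2(FPKM + 1) they sat higher, at 0.34 against 0.28 and 0.37 against 0.33 with a filter, and against 0.04 and 0.05 over all genes. All fold changes that follow are on the TMM scale.

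**Figure D2:**
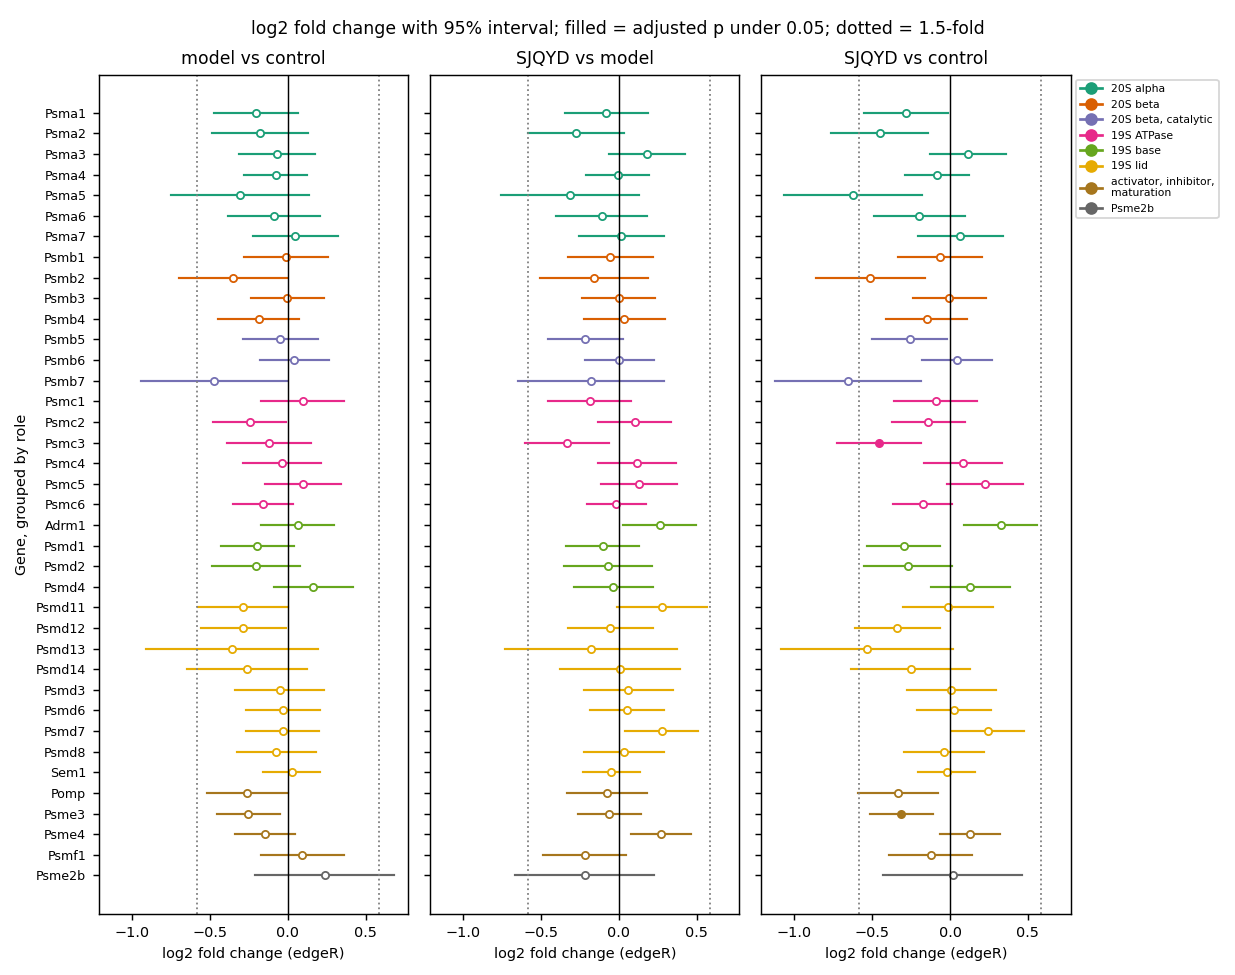
Log2 fold change from edgeR (point) with its 95% interval (line) for the 38 tested members in the 3 comparisons, coloured by role. Filled points passed an adjusted p of 0.05 and dotted lines mark 1.5-fold. Only Psmc3 and Psme3 in SJQYD against control are filled, and most lines stay between the dotted ones.

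In the alpha ring, which opens and closes the channel of the core, 0 of 7 tested subunits were called in any comparison. Psma7 was level, at 57.7 ± 8.23 CPM (SD, n = 5) in control, 59.7 ± 4.34 in model and 60.3 ± 10.2 in SJQYD. Psma1 stood at 22.3 ± 3.54, 19.4 ± 2.39 and 18.4 ± 2.20 CPM, and Psma3 at 22.8 ± 2.31, 21.8 ± 2.55 and 24.7 ± 3.38. Psma1 in SJQYD against control was at -0.28 ± 0.13 in log2 and did not pass (edgeR, adjusted p = 0.17), and for Psma7 and Psma3 the differences between groups lay within the spread of the libraries. Psma2 had the smallest p of the ring in SJQYD against control: 34.7 ± 5.69 CPM in control against 25.4 ± 5.14 in SJQYD, with a log2 ratio of -0.45 (SE 0.15; edgeR, adjusted p = 0.0565). Psma5 was the least steady alpha subunit. It read 11.2, 7.06, 7.09, 8.54 and 15.0 CPM in control 1 to 5, 9.56, 7.71, 7.99, 7.06 and 7.31 in the model libraries and 7.07, 3.95, 7.23, 6.74 and 6.83 in the SJQYD libraries. Control 1 and control 5 stood above all the rest and SJQYD 2 below, and the groups overlapped. Its log2 fold change of SJQYD over control was -0.62 ± 0.21 (edgeR, adjusted p = 0.0662).

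Among the 4 beta subunits without a catalytic site, again 0 were called. Psmb1, at 49.4 ± 8.01, 49.0 ± 6.56 and 47.2 ± 5.09 CPM in control, model and SJQYD, and Psmb4, at 44.4 ± 6.52, 39.0 ± 5.86 and 39.98 ± 3.38, differed by less than their spread. Psmb2 was the exception in size, at 13.3 ± 2.91 CPM in control, 10.4 ± 1.83 in model and 9.29 ± 1.46 in SJQYD, with log2 fold changes against control of -0.35 ± 0.16 for model and -0.51 ± 0.17 for SJQYD (edgeR, adjusted p = 0.224 and 0.0548). It passed under DESeq2 in the latter comparison (adjusted p = 0.0359).

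Of the 3 catalytic subunits, 0 were called in any comparison. Psmb6, which cuts after acidic residues, read 64.9, 47.2, 49.4, 51.6 and 61.4 CPM in control 1 to 5, 59.5, 60.0, 59.0, 52.8 and 51.3 in model 1 to 5, and 54.7, 63.0, 52.0, 59.4 and 54.1 in SJQYD 1 to 5. Its 3 groups overlapped almost entirely, and its log2 fold changes were 0.04 for model over control, 0.00 for SJQYD over model and 0.04 for SJQYD over control. Psmb5, which cuts after hydrophobic residues and is the main target of proteasome inhibitors, read 33.2, 24.0, 27.3, 29.0 and 34.0 CPM in control, 29.3, 26.8, 27.9, 31.7 and 27.2 in model and 19.9, 25.1, 26.2, 27.7 and 24.2 in SJQYD. SJQYD 1 was the lowest library and the groups overlapped. Psmb5 had a log2 fold change of -0.05 ± 0.11 for model over control and -0.26 ± 0.11 for SJQYD over control (edgeR, adjusted p = 0.859 and 0.151). Psmb7, which cuts after basic residues, read 27.6, 15.6, 23.0, 18.5 and 26.6 CPM in control, 12.8, 11.6, 16.5, 20.7 and 18.5 in model and 8.41, 15.7, 17.0, 18.4 and 11.3 in SJQYD. The 3 highest libraries were all control libraries, but control 2 and control 4 lay within the range of the NOD/LTJ groups. Its log2 fold changes against control, -0.47 ± 0.22 for model and -0.65 ± 0.22 for SJQYD, were the lowest of all members, and neither passed (edgeR, adjusted p = 0.223 and 0.0674). In the annotation 11.8% of the exon bases of Psmb7 are shared with Nek6 on the other strand, so reads of the pair may not have been told apart.

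The promoters of Psmb6 and Psmb5 are shown because both carry the antioxidant response element, the motif through which the transcription factor NFE2L1 is known to drive proteasome genes. The capitals mark TGACNNNGC, searched on both strands in the 250 bases before the RefSeq start, which begins at position -9 in Psmb6 and -47 in Psmb5. Both stretches read 5′ to 3′ on the gene's strand in GRCm38.p6, chr11:70525107-70525356 (plus strand) for Psmb6 and chr14:54618023-54618245 (minus strand) for Psmb5, the latter without the bases that the files place inside the gene.
Psmb6: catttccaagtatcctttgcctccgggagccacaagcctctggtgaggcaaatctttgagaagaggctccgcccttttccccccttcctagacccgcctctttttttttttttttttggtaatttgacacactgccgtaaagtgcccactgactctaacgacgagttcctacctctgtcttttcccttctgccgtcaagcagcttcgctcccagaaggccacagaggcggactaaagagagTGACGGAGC
Psmb5: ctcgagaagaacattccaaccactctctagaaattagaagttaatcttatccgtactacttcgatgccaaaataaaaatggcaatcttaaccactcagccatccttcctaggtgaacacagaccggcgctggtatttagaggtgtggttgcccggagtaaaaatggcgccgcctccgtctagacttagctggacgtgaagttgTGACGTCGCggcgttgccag
Of the 33 members with an entry in the promoter table, 5 (15.2%) held the motif, against 11.5% of all 27025 promoters: Adrm1, Psmb5, Psmb6, Psmc6 and Psmd12. A CCAAT box on either strand was held by 13 of 33 (39.4%) against 37.5% of all. The interferon-stimulated response element (a pair of GAAA runs with 2 bases between them, either strand) was a motif added after the data had been seen. It was held by 2 of 33 (6.06%, Psmb3 and Psmd4) against 3.46% of all. Of the 5 inducible subunits 0 held it, 0 held TGACNNNGC and 1 (Psmb9) held a CCAAT box. For the 5 members with TGACNNNGC in SJQYD against control, Adrm1 and Psmb6 had values of 0.33 and 0.04, and Psmb5, Psmc6 and Psmd12 of -0.26, -0.18 and -0.34.

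The 6 ATPases form the ring that unfolds the substrate and threads it into the core, and 1 of them was called. Psmc3 read 52.6, 44.0, 48.6, 45.3 and 63.3 CPM in control 1 to 5, 47.5, 45.2, 53.1, 47.7 and 39.98 in model 1 to 5, and 43.7, 32.4, 40.1, 29.8 and 39.3 in SJQYD 1 to 5. All 5 SJQYD libraries lay below all 5 control libraries, by a narrow margin between SJQYD 1 and control 2, whereas model overlapped both. Psmc3 fell in SJQYD relative to control, with a log2 fold change of -0.45 ± 0.13 (edgeR, adjusted p = 0.0304), from 50.8 ± 7.75 to 37.0 ± 5.77 CPM. Of all genes, 5% lay in SJQYD wholly below control. Against the model group the value was -0.33 ± 0.13 and did not pass (edgeR, adjusted p = 0.187). The call on Psmc3 was kept in 11 of 15 fits that left out 1 library and lost without control 1, control 5, SJQYD 2 or SJQYD 4 (-0.36 to -0.43, adjusted p of 0.0762 to 0.089); with library totals the value was 0.20 and not called, below the all-gene median of 0.63, and without a filter on low counts the call was lost (edgeR, adjusted p = 0.0538). Psmc3 (chr2:91054009-91066369, GRCm38, plus strand) shares 8.25% of its exon bases with Slc39a13 on the other strand.

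The other ATPases showed no such order. Psmc5, the most abundant per length, stood at 37.6 ± 2.41 CPM in control, 40.2 ± 5.72 in model and 44.0 ± 5.90 in SJQYD (0.23 ± 0.12 for SJQYD over control; edgeR, adjusted p = 0.223). Psmc2 stood at 28.8 ± 4.96, 24.3 ± 0.979 and 26.1 ± 1.60 CPM, with its lowest p in model against control (-0.24 ± 0.11; edgeR, adjusted p = 0.209). Psmc6 stood at 26.2 ± 2.07, 23.5 ± 1.80 and 23.2 ± 1.52, and Psmc1 at 19.3 ± 2.49, 20.7 ± 3.31 and 18.1 ± 2.29. Within this ring the values in SJQYD against control thus ran from -0.45 for Psmc3 to 0.23 for Psmc5.

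The base also holds the scaffolds Psmd1 and Psmd2 and the ubiquitin receptors Psmd4 and Adrm1, and 0 of these 4 were called. Psmd1 was at 15.0 ± 1.61 CPM in control, 13.1 ± 1.16 in model and 12.2 ± 1.38 in SJQYD, and Psmd2 at 33.7 ± 3.58, 29.3 ± 4.43 and 27.9 ± 5.14. Their log2 fold changes in SJQYD against control were -0.30 ± 0.11 and -0.27 ± 0.13 (edgeR, adjusted p = 0.0926 and 0.208). Adrm1, the receptor that docks the deubiquitinase Uchl5, read 35.4, 29.4, 34.0, 33.1 and 28.9 CPM in control, 31.3, 36.5, 33.2, 37.2 and 29.9 in model and 49.6, 37.8, 33.3, 41.6 and 39.3 in SJQYD. SJQYD 1 stood far above the others, 4 of 5 SJQYD libraries lay above every control and model library, and SJQYD 3 lay among them. The log2 fold change of Adrm1 was 0.33 ± 0.11 over control and 0.26 ± 0.11 over model (edgeR, adjusted p = 0.0682 and 0.244). It passed against control under DESeq2 (adjusted p = 0.0432) and in edgeR without SJQYD 3. Psmd4 was at 47.9 ± 3.03, 53.7 ± 7.41 and 52.4 ± 8.63 CPM, and SJQYD over model was -0.04 in log2.

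None of the 9 lid subunits was called. The lid members with the smallest p in SJQYD against model were Psmd7, a partner of the lid deubiquitinase Psmd14, and Psmd11. Psmd7 was at 18.1 ± 1.92 CPM in control, 17.7 ± 0.899 in model and 21.4 ± 3.13 in SJQYD (0.27 ± 0.11 over model; edgeR, adjusted p = 0.213), and Psmd11 at 11.7 ± 1.51, 9.59 ± 1.39 and 11.6 ± 1.72 (0.28 ± 0.14; edgeR, adjusted p = 0.335). Psmd12 was at 25.7 ± 4.88, 21.1 ± 0.979 and 20.3 ± 2.90 CPM, with a log2 fold change of -0.34 ± 0.13 in SJQYD against control (edgeR, adjusted p = 0.1003). The small acidic subunit Sem1 was the steadiest member, at 38.7 ± 0.872, 39.3 ± 2.02 and 38.1 ± 3.82 CPM. Psmd13, chosen after its values were seen because it spread most, read 23.1, 20.98, 15.99, 23.2 and 29.0 CPM in control, 23.4, 11.5, 17.8, 20.9 and 14.0 in model and 26.5, 11.6, 17.3, 9.99 and 12.0 in SJQYD. The groups overlapped, with SJQYD 1 high in its own, and 10.1% of the exon bases of Psmd13 are shared with Sirt3 on the other strand. Psmd3, Psmd6, Psmd8 and Psmd14, together with Psma4, Psma6, Psmb3 and Psmc4 of the other roles, had log2 fold changes between -0.26 and 0.12 in all 3 comparisons.

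Of the activators, inhibitor and maturation factor, Psme3 was called. It encodes PA28-gamma, a nuclear activator that opens the core without ubiquitin, and lies at chr11:101316213-101323537 (GRCm38, plus strand). Psme3 read 22.7, 17.1, 23.9, 21.8 and 21.3 CPM in control 1 to 5, 17.1, 17.5, 17.5, 20.03 and 17.4 in model 1 to 5, and 16.7, 16.9, 17.1, 17.3 and 18.0 in SJQYD 1 to 5. Control 2 lay among the NOD/LTJ values, and the other 4 control libraries lay above every NOD/LTJ library. Psme3 fell in SJQYD relative to control from 21.3 ± 2.58 to 17.2 ± 0.496 CPM, a log2 fold change of -0.31 ± 0.10 (edgeR, adjusted p = 0.045), and model against control gave -0.25 ± 0.10, which did not pass (edgeR, adjusted p = 0.132). The call was a marginal one: of 15 fits that left out 1 library, it held in the 2 without control 2 or model 4, and in the other 13 the adjusted p was 0.0505 to 0.118. With library totals the value was 0.30 and not called, below the all-gene median of 0.63. It was also lost in edgeR without a filter, with the 2 groups alone and with the replicate block (adjusted p of 0.0709 to 0.127). The promoter of Psme3 (chr11:101315963-101316212, GRCm38.p6, plus strand) is shown as that of a called member and holds a CCAAT box on the reverse strand, in capitals as ATTGG, at position -14 from the RefSeq start.
Psme3: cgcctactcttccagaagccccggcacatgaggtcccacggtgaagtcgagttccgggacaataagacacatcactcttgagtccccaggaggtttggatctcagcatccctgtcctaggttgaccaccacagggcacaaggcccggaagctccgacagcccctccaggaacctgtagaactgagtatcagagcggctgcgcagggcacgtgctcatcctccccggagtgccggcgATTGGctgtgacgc

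Psme4, which encodes the activator PA200, was the only member whose SJQYD libraries lay wholly above the model libraries. It read 22.0, 22.5, 26.8, 27.3 and 22.2 CPM in model 1 to 5 and 30.9, 28.3, 27.5, 29.7 and 29.6 in SJQYD 1 to 5, with 29.1, 25.4, 26.8, 27.5 and 25.0 in control. The gap was narrow, between model 4 and SJQYD 3, and control libraries overlapped both groups; of all genes, 3.21% lay wholly higher in SJQYD than in model and 2.29% wholly lower, as 0 members did. The log2 fold change of 0.27 ± 0.09 did not pass in edgeR (adjusted p = 0.127) and passed in DESeq2 (0.28, adjusted p = 0.0426). Pomp, the chaperone that completes the assembly of the core, was at 46.2 ± 6.56 CPM in control, 38.6 ± 5.39 in model and 36.6 ± 4.31 in SJQYD (-0.33 ± 0.12 for SJQYD over control; edgeR, adjusted p = 0.088). Psmf1, the inhibitor PI31, was at 9.26 ± 0.859, 9.89 ± 0.528 and 8.49 ± 1.48 CPM and Psme2b at 8.95 ± 2.37, 10.6 ± 2.81 and 9.07 ± 1.52, and neither was called.

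**Figure D3:**
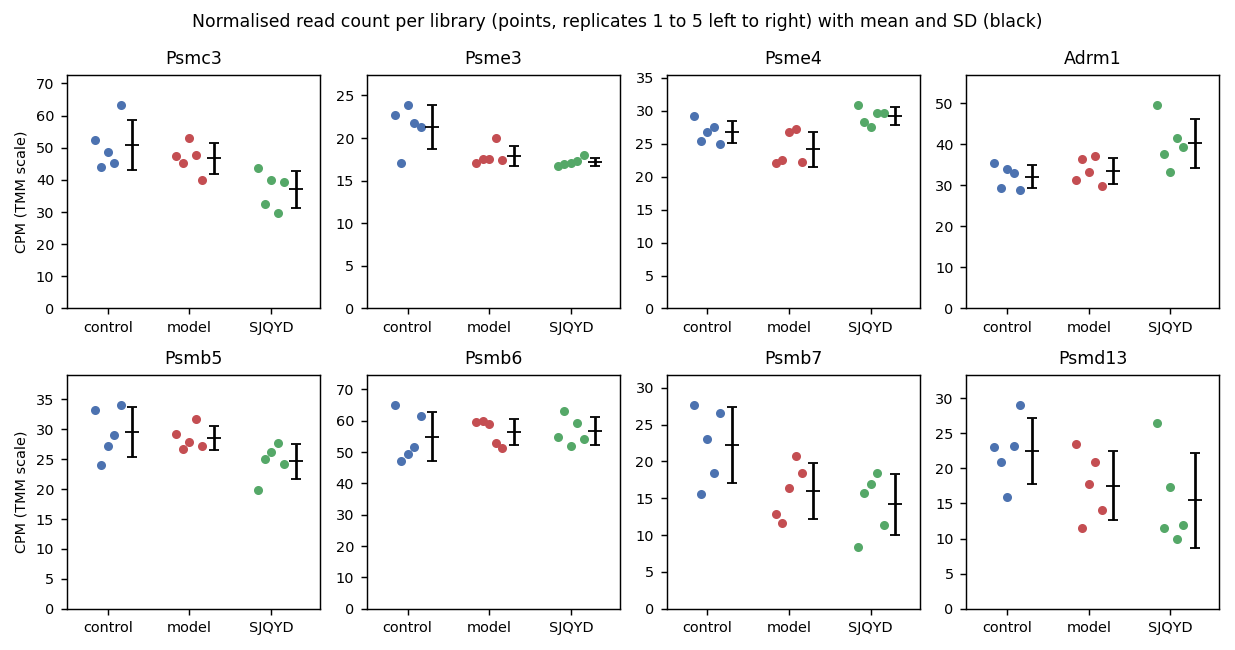
CPM per library (points, replicates 1 to 5 from left to right) with mean and SD (black) for 8 members in control, model and SJQYD, on axes that start at 0. Psmc3 in SJQYD lies wholly below control, Psme4 in SJQYD wholly above model, and Psmb6 is level, while Psmb7 and Psmd13 spread widely in each group.

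The constitutive subunits were then set against the inducible ones that replace them. Of the 5 inducible genes, 4 rose in model relative to control in edgeR: Psmb8 by 1.68 ± 0.30 on the log2 scale (adjusted p = 0.0064), Psmb9 by 1.59 ± 0.37 (adjusted p = 0.0251), Psmb10 by 1.01 ± 0.25 (adjusted p = 0.032) and Psme1 by 0.64 ± 0.18 (adjusted p = 0.0478). The call on Psmb8 held in all 15 fits that left out 1 library. Those on Psmb9, Psmb10 and Psme1 held in 10, 8 and 4 of 15, and all of them were lost without control 1, control 3, control 4, model 1 or model 2 (adjusted p of at most 0.116). Psmb10 was also lost without control 5 or model 5, and Psme1 without model 3, model 5 or any of SJQYD 2 to 5. In the edgeR fit of the 2 groups alone Psmb9, Psmb10 and Psme1 were lost (adjusted p = 0.0573, 0.0642 and 0.0719), without a filter Psmb9 and Psmb10 (0.0557 and 0.0523), and in limma on log2(FPKM + 1) over all genes Psmb10 (0.0702). Against the model group 0 of 5 were called in SJQYD, with a median of -0.57, and against control 1 was, Psmb8 at 1.04 ± 0.29 (edgeR, adjusted p = 0.0328). That call was lost without control 1, control 3, control 4, SJQYD 2, SJQYD 3 or SJQYD 5 (adjusted p of 0.0527 to 0.0863), without a filter (0.0731) and with the 2 groups alone (0.0832).

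Within each library the transcripts of an inducible and a constitutive subunit can be compared as a ratio of FPKM values, which does not depend on library scaling. In whole glands such a ratio does not show that subunits were exchanged within proteasomes or within any cell. The size of a ratio depends on the gene lengths used, so it does not show which subunit predominates. Over 15 libraries Psmb10 and Psmb7 averaged 6.996 and 4.21 FPKM, but 9.78 and 15.07 CPM per kilobase of the principal transcript. Psmb8 and Psmb5 averaged 12.0 and 26.4 FPKM, but 26.8 and 30.7 on the latter scale. Lengths are the same in every library, so they do not alter the differences between groups. The ratio of Psmb9 to Psmb6 was 0.0340, 0.180, 0.0592, 0.0468 and 0.117 in control 1 to 5, 0.270, 0.247, 0.241, 0.227 and 0.262 in model 1 to 5 and 0.0881, 0.197, 0.177, 0.112 and 0.143 in SJQYD 1 to 5. Every model library lay above every library of the other groups, and control 2 was the highest of control. The ratio was 3.44-fold higher in model than in control and in SJQYD 0.552-fold that of model (log2 differences of 1.78 and -0.86; 2-sided exact permutation tests, p = 0.007937 each, the smallest that 5 against 5 can give, 0.0238 adjusted over 9 ratio tests). Against control, SJQYD was 0.92 higher on the log2 scale and did not pass (exact permutation test, adjusted p = 0.125). The constitutive partner Psmb6 had log2 fold changes of 0.04, 0.00 and 0.04 in the 3 comparisons, and Psmb9 of 1.59, -0.79 and 0.80.

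For Psmb8 to Psmb5, control libraries read 0.0912, 0.326, 0.151, 0.129 and 0.265, model libraries 0.701, 0.700, 0.638, 0.549 and 0.545, and SJQYD libraries 0.390, 0.666, 0.422, 0.286 and 0.569. Model lay wholly above control, and SJQYD overlapped both. The ratio was 3.61-fold higher in model than in control (exact permutation test, adjusted p = 0.0238) and 2.59-fold higher in SJQYD than in control (exact permutation test, adjusted p = 0.0357), and the difference between SJQYD and model, -0.48 in log2, did not pass (exact permutation test, adjusted p = 0.0918). The second of these calls held without control 2, SJQYD 2 or SJQYD 4 and was lost without any other single library of the groups (adjusted p of 0.0571 to 0.0714).

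For Psmb10 to Psmb7 the values were 0.476, 1.79, 0.555, 0.724 and 0.778 in control, 4.24, 3.28, 1.66, 1.27 and 1.70 in model and 2.80, 1.73, 1.85, 0.893 and 1.83 in SJQYD. Control 2 lay inside the range of the NOD/LTJ groups and the other control libraries lay below it. The ratio was 2.85-fold higher in model and 2.23-fold higher in SJQYD than in control (exact permutation tests, adjusted p = 0.0476 and 0.0429), and SJQYD against model gave -0.35 (exact permutation test, adjusted p = 0.437). The first call held without control 2 and was lost without any of the other 9 libraries (adjusted p of 0.0714 to 0.0952), and the second held only without control 2, SJQYD 2 or SJQYD 4. Against control, the constitutive partner Psmb7 was at -0.47 in model and -0.65 in SJQYD, and Psmb10 at 1.01 and 0.43. Leukocyte marker sums, given above, were also lowest in control and highest in model, and their part in these ratios was not tested. Without the 3 parotid-rich libraries all 6 called ratios stayed called, and the Psmb9 to Psmb6 ratio was 2.12 higher in model than in control and -0.71 in SJQYD against model.

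**Figure D4:**
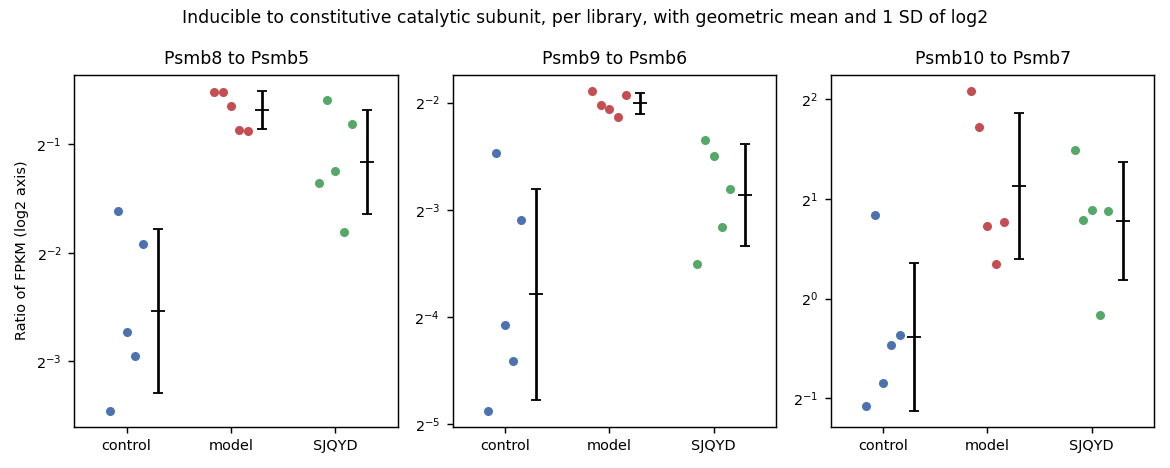
FPKM ratio of each inducible catalytic subunit to the constitutive subunit it replaces, per library (points), with geometric mean and 1 SD of log2 values (black), on log2 axes. Model lies wholly above control for Psmb8 to Psmb5 and for Psmb9 to Psmb6, and SJQYD lies wholly below model for Psmb9 to Psmb6.

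The median within-group SD of log2 CPM was 0.186 over the 38 members against 0.240 over the 8669 tested genes at or above 5 CPM. Members averaged 8.03 (Psma5) to 59.2 CPM (Psma7). The genes they are set against were not matched to them by level, and the part of level in this difference was not tested. Sem1 (0.101), Psmc6 (0.106) and Psme4 (0.110) spread least, and Psmd13 (0.446), Psmb7 (0.395), Psme2b (0.377) and Psma5 (0.356) most. With group means removed, the median Pearson correlation over pairs of members across the 15 libraries was 0.217, against 0.003 over pairs of all those genes. By role it was 0.558 among the catalytic subunits, 0.524 among the other beta subunits, 0.431 in the base scaffold and receptors, 0.415 in the alpha ring, 0.294 among the ATPases, 0.164 in the lid and 0.130 among activators, inhibitor and maturation factor. These values share libraries, depth and scaling and are a description only. Psmc2 followed the mean of the other members most closely (r = 0.82), and the inhibitor Psmf1 ran against it (r = -0.40). Psmc5 (-0.03) and Sem1 (-0.01) did not follow it.

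The non-members most like the mean of the 34 members at or above 10 CPM, over the same 15 libraries with group means removed, were Dnaja3, a mitochondrial co-chaperone (r = 0.902), Tmem65 (0.895), Mtpn (0.891), Slc25a11, a mitochondrial carrier (0.876), and Pcyox1 (0.868). In the levels by library, control 1 and control 5 stood above the mean of all libraries for most core members (median deviation 0.22 and 0.24 in log2), and control 2 below (-0.13). SJQYD 1 split the members, with Psmb7, Psma2 and Psmb5 among the low ones and Psmd13, Adrm1, Psmd3 and Psmd4 among the high ones.

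**Figure D5:**
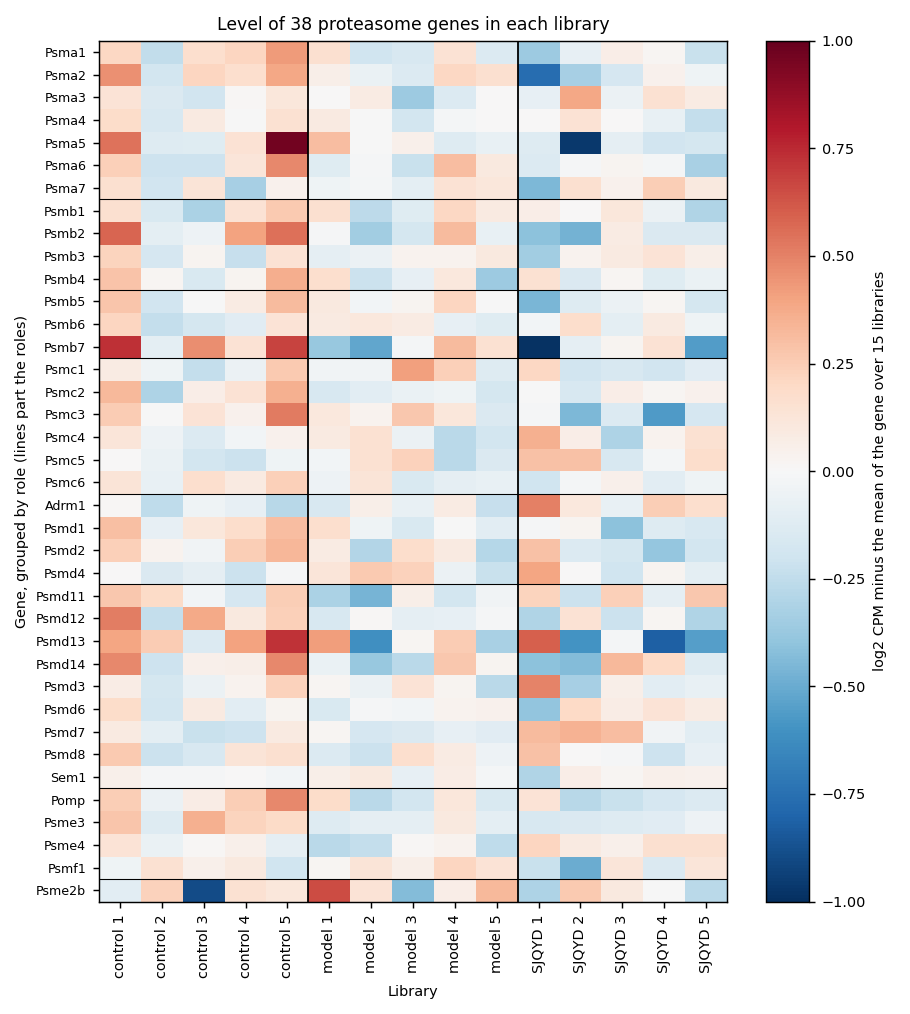
Log2 CPM of the 38 tested members (rows, grouped by role) in each library (columns), minus the gene's mean over 15 libraries; red is above and blue below. Control 1 and control 5 are red for most members of the core, control 2 is mostly blue, and SJQYD 1 is mixed.

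Calls among genes that make, assist or feed the proteasome stand beside these shares of all genes. In model against control 2.57% of all genes were called higher and 2.5% lower. The shares were 1.91% and 0.838% in SJQYD against model, and 5.22% and 5.9% in SJQYD against control. Among 9 tested genes that control proteasome genes, 0 were called in model against control or SJQYD against model. Nfe2l1, the transcription factor that restores proteasome subunits, was at 49.7 ± 4.76 CPM in control, 50.5 ± 8.23 in model and 57.3 ± 8.68 in SJQYD (0.20 ± 0.13 over control; edgeR, adjusted p = 0.331). In SJQYD relative to control Mafg, its small Maf partner, rose by 0.59 ± 0.15 (edgeR, adjusted p = 0.0152), called in all 15 fits without 1 library, and Foxo4 fell by 0.36 ± 0.11 (edgeR, adjusted p = 0.0449), called in 5 of those 15 (without SJQYD 1 or model 2, 3, 4 or 5) and at 0.28, not called, with library totals. Foxo4 was also lost in edgeR without a filter, with the 2 groups alone and with the replicate block (adjusted p of 0.0529 to 0.112). Of 7 tested assembly chaperones, 1 was called: Psmd10 (gankyrin), which guides the ATPase ring, fell by 0.84 ± 0.18 in SJQYD relative to control, from 5.32 to 2.96 CPM (edgeR, adjusted p = 0.00799), and held in all 15 fits without 1 library. With library totals Psmd10 was at -0.19 and in the FPKM fits at -0.27 to -0.18, none of them called (edgeR and limma, adjusted p of 0.307 to 0.546).

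Of 9 tested proteasome-associated genes (the member Psmd4 is 1 of them), 2 were called, in 1 comparison. Uchl5, the deubiquitinase that binds Adrm1, and Zfand5, a zinc-finger protein that binds the proteasome, fell in SJQYD relative to control, by 0.50 ± 0.15 and 0.57 ± 0.16 (edgeR, adjusted p = 0.0393 and 0.0278). With library totals they were at 0.16 and 0.02, not called, and they held in 7 and 9 of 15 fits without 1 library, both being lost without control 1, control 3, control 5, SJQYD 2 or SJQYD 3 (adjusted p of at most 0.115). In the FPKM fits neither was called, and Uchl5 was also lost without a filter and with the replicate block (edgeR, adjusted p = 0.0586 and 0.0626). Of 9 tested ubiquitin activation and shuttle genes, Rad23b and Ubqln1, which carry ubiquitinated proteins to the cap, fell in model relative to control by 0.55 ± 0.13 and 0.51 ± 0.12 (edgeR, adjusted p = 0.028 and 0.0223). With library totals these were at -0.0311 and -0.0015 and in the FPKM fits at -0.07 to -0.04, none of them called, and Rad23b was also lost with the 2 groups alone (edgeR, adjusted p = 0.0593). Rad23b and the activating enzyme Uba1 fell in SJQYD relative to control by 0.52 ± 0.13 and 0.44 ± 0.11 (edgeR, adjusted p = 0.0211 and 0.0202), and stood at 0.14 and 0.18, not called, with library totals. Ufd1, a cofactor of the unfoldase Vcp, rose in SJQYD relative to model by 0.45 ± 0.10 (edgeR, adjusted p = 0.0236). With library totals and in the FPKM fits Ufd1 was at 0.43 to 0.61 and not called (edgeR and limma, adjusted p of 0.508 to 0.656), and it was lost without a filter, with the 2 groups alone and with the replicate block (edgeR, adjusted p of 0.051 to 0.0561). These 5 calls held in 9 (Rad23b, model), 12 (Ubqln1), 11 (Rad23b, SJQYD), 12 (Uba1) and 10 (Ufd1) of 15 fits without 1 library. The first 4 were lost without control 1, and Ufd1 without SJQYD 2, SJQYD 3, model 1, model 3, model 5 or the 3 parotid-rich libraries together; in the single-library fits that lost a call the adjusted p was at most 0.0794.

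Ubb, which encodes ubiquitin itself, fell in SJQYD relative to control by 0.78 ± 0.17 (edgeR, adjusted p = 0.00707), from 299 ± 64.6 to 174 ± 18.4 CPM. Every SJQYD library lay below every control library, as was so for 5% of all genes. The call on Ubb held in all 15 fits without 1 library. With library totals Ubb was at -0.18 and in the FPKM fits at -0.21, none of them called (edgeR and limma, adjusted p of 0.457 to 0.571).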

How the data were processed

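The members and gene lists were chosen with earlier results of these data known. Per the labels' protocols, poly(A) RNA was made into libraries whose second strand was marked with dUTP and whose adapters carried molecular identifiers, and read as pairs on an Illumina NovaSeq. The submitters' processing notes list StringTie 1.3.4d, edgeR, cutadapt 1.9, DESeq2, UMI-tools and HISAT2 2.0.4 with no roles, and whether duplicates were removed and strand was used in counting is not given in the sources used here. They name the build mm9, but gene coordinates in the file equal those of GRCm38 in GENCODE M21 for 28337 of 32385 genes found there and 36 of the 40 members, so GRCm38 coordinates are given.

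The authors deposited whole-number read counts per gene for 55401 genes, not normalized, and FPKM values with the same counts for 32479 genes. The ratio of count to FPKM was proportional to the merged exon length of all annotated transcripts, within 2%, for 98.64% of 9989 genes, so levels were also computed per kilobase of the GENCODE principal transcript, an alternative chosen after seeing the data.

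Counts were tested in R 4.3.3 with the quasi-likelihood F test of edgeR 4.0.16 (filterByExpr by group, which kept 18136 genes, TMM scaling, robust fit, all 15 libraries, 1 mean per group), with Benjamini-Hochberg adjustment over all tested genes and calls at an adjusted p under 0.05. A value printed as ± beside a log2 fold change is its standard error and beside a CPM its SD over 5 libraries. The fit was tested on simulated counts, drawn independently for each gene and library from the fitted spread. These do not hold the differences in composition between libraries, so that test does not bear on the choice of scaling. Ratios of subunits were compared by exact permutation tests on log2 FPKM ratios, adjusted over 9 tests. Genes named with values were the called ones, the 2 with the smallest p and the highest and lowest by FPKM in each role, the catalytic subunits, activators, inhibitor and maturation factor, and, in lists without members, every called gene with Nfe2l1, Psmb8, Psmb9 and Psmb10, and the 5 non-members that correlate best with the mean of the members; some genes of the lists are not reported here. Of the 38 tested members, 9 share exon bases with another gene in the annotation.

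Alternatives were DESeq2 1.42.0, its size factors or upper-quartile factors in edgeR, library totals, no filter, a filter of 1 CPM in 5 libraries, limma 3.58.1 (voom with quality weights, and on log2 FPKM with a pseudocount of 0.1 or 1), the 2 compared groups alone, a replicate block and each library left out; chosen after seeing the data were the fits without the 3 parotid-rich libraries. Promoter sequences are from RefSeq (GRCm38.p6).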

Additional observations from a re-analysis of the deposited data

Results flagged for a closer look

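Dixon's test, whose critical value for 5 is 0.71, was run group by group on the tested members, the named list genes and the ratios. Of 168 groups of 5 libraries tested, 12 held a library that stood apart from the other 4. About 1 in 20 groups, here 8.4, stands apart in this way by chance alone. SJQYD 1 gave 6 of them. In SJQYD 1 the beta subunit Psmb3 read 22.5 CPM against 29.2 in the nearest library of its group, the lid subunits Psmd6 17.8 against 24.7 and Sem1 31.3 against 39.1, and these were low. The ATPase Psmc1, at 22.2 against 17.8, the transcription factor Foxo4, at 20.6 against 16.1, and the shuttle Ubqln1, at 54.2 against 43.2, were high there. SJQYD 1 is also the library with the lowest Mucl2 share (15.5%) and the highest TMM factor (1.85), and the part of these in its values was not tested.

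The alpha subunit Psma5 read 3.95 CPM in SJQYD 2, the library with the fewest counts, against 6.74 in the nearest library. The activator Psme3 read 20.03 CPM in model 4 against 17.5, and the chaperone Psmd10 read 3.86 in SJQYD 3 against 2.86. Nfe2l1 read 41.4 CPM in control 2 against 50.5, and 64.7 in model 4 against 50.2. The ratio of Psmb10 to Psmb7 was 1.79 in control 2, the library of its group richest in parotid transcripts, against 0.778 in the nearest control library. Leukocyte markers summed to 197 CPM in control 2 and to 193 CPM in control 4, where the ratio was 0.724. The part of these transcripts in the ratio was not tested.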

How the results depend on the processing

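In SJQYD against control the 2 members called lower became 6 under DESeq2 and 5 under voom, 1 in the fit of the 2 groups alone, 0 without a filter, 0 with library totals and 0 in each FPKM fit, and 7 without the parotid-rich libraries. Members called higher there were 1 with DESeq2, 12 with library totals, 10 with log2(FPKM + 0.1), and 4 (all genes) and 9 (filtered) with log2(FPKM + 1). SJQYD against model gave 1 higher with DESeq2. Model against control gave 1 higher with library totals and in each FPKM fit, and 1 lower without the parotid-rich libraries. Fits without 1 library gave 0 to 10 lower and 0 to 1 higher in SJQYD against control, and 0 to 3 lower in model against control. Directions reversed in SJQYD against control, with library totals, log2(FPKM + 0.1) and log2(FPKM + 1, the same with or without a filter) in turn, for Psmc3 (0.20, 0.0943, 0.0924), Psme3 (0.30, 0.24, 0.21), Foxo4 (0.28, 0.18, 0.16), Rad23b (0.14, 0.0395, 0.042), Uba1 (0.18, 0.10, 0.10) and Uchl5 (0.16, 0.0597, 0.0583), for Sem1 (0.55 and 0.52, called higher, adjusted p = 0.0467 and 0.0459) and, with library totals, Zfand5 (0.0193). Neither setting uses a factor for libraries that differ in composition, and the cause was not tested. Of the 132 values of named genes, 61 changed sign with library totals, 56 to 58 in the FPKM fits, and at most 7 under any other setting that did not leave out single libraries.

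Same-numbered libraries correlated weakly (r from -0.373 to 0.338, above 0.1 in 6 of 15 pairs), and 8 of 30 correlated best with their own number. Replicate 4 was positive between control and model (0.338), control and SJQYD (0.178) and model and SJQYD (0.228). Whether the numbers mark a pairing or a batch cannot be told from these values, and the main fit did not use them. With the replicate block, 1 member (Psmc3) was called lower in SJQYD against control. A block by sign flips within numbers, which cannot give a p under 0.05 with 5 pairs, leaves the ratios at 1.85 and 1.37 (Psmb8 to Psmb5, model and SJQYD over control), 1.78 and -0.86 (Psmb9 to Psmb6, model over control and SJQYD over model), and 1.51 and 1.16 (Psmb10 to Psmb7, model and SJQYD over control), and none passed. Without 1 library these ran from 1.14 to 1.60 (Psmb8 to Psmb5, SJQYD over control), from 1.27 to 1.82 (Psmb10 to Psmb7, model over control) and from 0.979 to 1.46 (Psmb10 to Psmb7, SJQYD over control); the others stayed called. Depth was not limiting for the 38 tested members, whose lowest count was 182; Psma8 and Psmb11 were not tested for lack of counts.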
